A study of Homo sapiens with 16 samples.

Results

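The 4 libraries described here are the wild-type oncosphere cultures of H2023 and A549, 2 libraries of each line, out of 16 libraries in the series. They were chosen by their labels, and all 18227 genes that could be joined across the series' tables were compared. Both A549 and H2023 are established cell lines from human lung adenocarcinoma. The series pairs wild-type cells of each line with cells labelled as a knockout of ZC3H12A, in normal culture for 3 days or in a stem-cell-enriched culture, here called oncospheres, for 7 days. The groups used are A549 wild-type oncospheres, H2023 wild-type oncospheres and, beside them, wild-type cells of the same lines in normal culture. Oncosphere libraries labelled knockout, which come from 1 clone per line, served as a further pair of groups that the main comparison does not use. Each group has 2 libraries, and nothing in the labels says whether replicates came from separate cultures, so the p-values measure the spread between libraries, which may be technical.

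Oncosphere culture keeps cells afloat without attachment, usually in serum-free medium with growth factors, and is used to enrich tumour cells with stem-like growth. The labels give no more on the medium, and culture and days of culture change together in this series. The protein made from ZC3H12A, Regnase-1, cuts mRNAs of inflammation at stem-loops in them. The comparison asks how the transcriptomes of both lines differ as oncospheres before any edit.

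Levels are given in TPM, a measure of transcripts per length that is scaled to the same total in each library. Differences are H2023 minus A549 on the log2(TPM + 1) scale, so that a positive value means a higher level in H2023, and each is given with its standard error. The scale understates the differences of genes below a few TPM. Where values follow without a line name, A549 comes first and H2023 second, and replicate 1 before replicate 2. A gene was called where the Benjamini-Hochberg adjusted p of a limma fit over all genes was under 0.05. The tables list only genes with a mean normalized count of about 1 or more in every table. Genes under that mean in either line are not analysed here, and some of the genes listed still have 0 TPM in every H2023 library.

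The depth of single libraries is unknown from TPM, and the mean normalized counts over the 4 oncosphere libraries of a line, wild type and labelled knockout, sum to 20453740 in A549 and 22760512 in H2023. The replicates of each wild-type group correlated at 0.977 to 0.987 over genes, and the first principal component, with 50.1% of the variance, separated the lines. The second, with 33.2%, separated the cultures. Mitochondrially encoded protein genes held 19.0% and 21.6% of the TPM total in A549 oncospheres and 23.8% and 24.2% in H2023 oncospheres. A library that stands apart is replicate 1 of A549 oncospheres: all 35 measured interferon-stimulated genes were higher there than in replicate 2, by a median of 1.33 on the log2 scale. Results that rest on it are given with and without it. The epithelial markers KRT7, KRT8 and KRT18 were all above 800 TPM in each of the 4 libraries, and EPCAM lay between 7.94 and 51.0 TPM. Of 20 markers of blood, endothelial and fibroblast cells, 7 were measured, and their summed level was 252 and 154 TPM in A549 and 32.6 and 92.6 TPM in H2023 oncospheres. The monocyte markers CD14 and LYZ were lower in H2023, with differences of -4.40 and -3.37, and CD68 made up most of each sum. The fibroblast markers PDGFRA and PDGFRB were under 0.4 TPM in all 4 libraries. The endothelial marker PECAM1 was also called lower in H2023, as were CD68, KRT8 and KRT18. The calls of CD68 and KRT8 did not hold in the fit on the 4 libraries alone. EPCAM and KRT19 were called higher in H2023, with differences of 2.01 and 2.60. The lung marker NAPSA was called as well. Further defining markers, among them PTPRC, NKX2-1 and SFTPB, are not among the joined genes. What part these markers have in any result was not tested, and in bulk RNA fewer cells of a type and less RNA per cell cannot be told apart.

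ZC3H12A itself (ENSG00000163874; GRCh38 chromosome 1, 37474552 to 37484379, plus strand) was lower in H2023. Its level was 48.5 and 49.2 TPM in A549 oncospheres and 32.5 and 26.4 TPM in H2023 oncospheres. The groups did not overlap, as in 72.0% of all genes, and the difference was -0.72 ± 0.14 (adjusted p = 0.00531). In normal culture the lines stood at 30.7 and 34.9 TPM against 26.8 and 29.9 TPM, and the test of whether the cultures differ in this did not pass (adjusted p = 0.154). In the libraries labelled knockout the mRNA was still measured, at 60.2 and 55.6 TPM in A549 and 94.6 and 69.2 TPM in H2023, so mRNA level does not check that label. Of 13 related mRNA decay factors, 5 were higher and 2 lower in H2023, against 20.3% and 22.0% of all genes. ZFP36L2, an AU-rich element binding protein that recruits deadenylases, was higher at 45.4 and 52.0 TPM in H2023 against 26.2 and 27.3 TPM in A549 (0.84 ± 0.15, adjusted p = 0.00396). The Roquin gene RC3H1 did not pass the test, with a difference of 0.14. ZFP36, at 71.3 and 93.5 TPM in A549 and 50 and 121.66 TPM in H2023, did not pass either (-0.06 ± 0.37), but without replicate 2 of H2023 its difference was -0.70 (adjusted p = 0.0499). Without replicate 1 of A549 the list's counts were 2 higher and 1 lower, and without replicate 1 of H2023 they were 3 and 1.

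The lines differed in a large share of their genes. Of 18227 genes, 3704 were higher in H2023 (20.3%) and 4012 were lower (22.0%), together 42.3%. Differences of at least 1 on the log2 scale were called for 1486 genes upward and 1854 downward. With 1 oncosphere library left out at a time, 5250 to 6162 genes were called. The plot of gene levels in the lines shows the spread around equality.

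**Figure D1:**
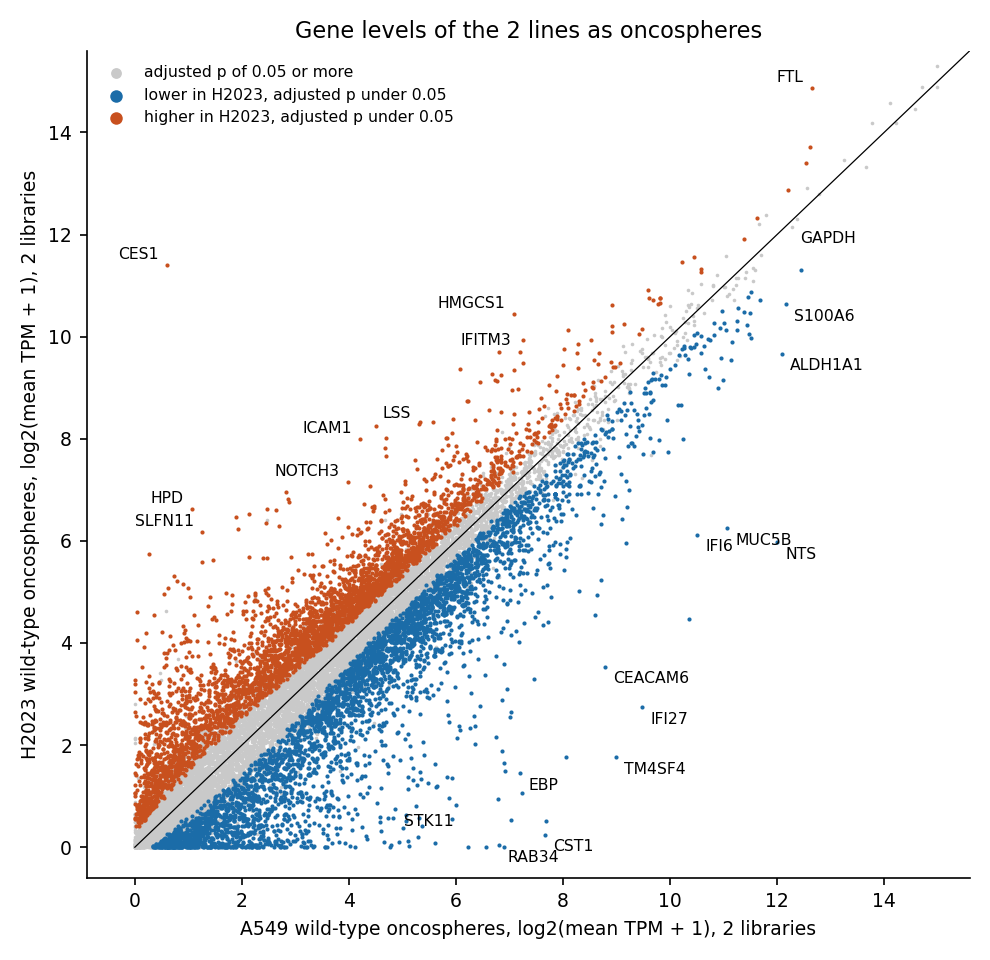
Mean level of each gene in wild-type oncospheres of A549 (x axis) and H2023 (y axis), both log2(mean TPM + 1) over 2 libraries; XIST and Y-linked genes are left out. Each point is a gene, blue where it was lower and orange where it was higher in H2023 at an adjusted p under 0.05, and the line marks equal levels; CES1 stands apart at the upper left and NTS, MUC5B and TM4SF4 at the lower right.

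The largest difference in either direction was that of CES1 (chromosome 16, 55802851 to 55833337), a carboxylesterase that hydrolyses esters of drugs and lipids. It stood at 0.69 and 0.33 TPM in A549 and at 2311 and 3087 TPM in H2023, a difference of 10.80 ± 0.20 (adjusted p = 4.59e-07). It has a close pseudogene copy, so how reads were shared between them is uncertain. In normal culture the means were 0.27 and 1691 TPM, and in the libraries labelled knockout the difference was 10.43. CES1 was thus among the 5 most abundant genes of H2023 oncospheres with a difference of at least 1, with FTL, MT-ND1, ENO1 and AKR1C1.

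Next in size among genes higher in H2023 were HPD, an enzyme of tyrosine breakdown, with 1.06 and 1.12 TPM in A549 against 89.6 and 106 TPM in H2023, and TIMP3, an inhibitor of matrix metalloproteinases, with 0.12 and 0.28 TPM against 72.3 and 33.4 TPM. SLFN11, which blocks stressed replication forks and is known for its link to sensitivity to DNA-damaging drugs, stood at 1.55 and 1.25 TPM in A549 and 67.1 and 74.4 TPM in H2023 (4.90 ± 0.23, adjusted p = 2.63e-05). The others of the first 15 were GSTM3, CCN3, MEIOB, F2RL2, PCDHGB4, ATAD3B, COX7B2, TNC, TSPAN7, MLF1 and LOC102724560, with differences of 4.62 down to 4.17. GSTM3 conjugates glutathione, CCN3 and TNC are matricellular proteins, and MEIOB and COX7B2 are genes known from the testis. LOC102724560 is a near-identical copy of CBS and ATAD3B has close paralogs, so the split of reads between copies is uncertain for both. In the libraries labelled knockout 13 of these 15 genes were again higher in H2023. The exceptions were HPD, with a difference of -1.84, and TSPAN7, with -0.77.

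At the other end, CST1, a secreted cysteine protease inhibitor, stood at 225 and 178 TPM in A549 and at 0.12 and 0.25 TPM in H2023 (-7.41 ± 0.37, adjusted p = 3.16e-05). TM4SF4, a tetraspanin-like membrane protein, stood at 550 and 460 TPM against 2.14 and 2.62 TPM. SERPINA3, an acute-phase protease inhibitor, stood at 275 and 136 TPM against 0.41 and 0.43 TPM. SNRPN, a paternally expressed gene of the imprinted region on chromosome 15 (24823637 to 24978723), was at 124 and 113 TPM in A549 and is listed at 0 in both H2023 libraries. It overlaps SNURF, also listed at 0 in H2023, and the neighbouring transcript SNHG14 was at 30.4 and 37.1 TPM against 0.02 and 0. SNRPN was also listed at 0 in every H2023 library of normal culture and of the oncospheres labelled knockout. ARSL, a sulfatase, and NTRK3, a neurotrophin receptor, were at 66.3 to 98.8 TPM in A549 and listed at 0 in H2023 oncospheres.

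RAB34, a GTPase of cilium assembly, was at 117 and 104 TPM against 0 and 0.06 TPM. NTS, which encodes the peptide neurotensin, was at 4469 and 3730 TPM in A549 and at 31.3 and 92.6 TPM in H2023. VIL1, which bundles actin in microvilli, was at 131 and 87.7 TPM against 1.21 and 0.65 TPM. The other genes among the 15 lowest were TCN1, FXYD2, IFI27, IFITM1, DMBT1 and EBP. FXYD2, a subunit that modulates the sodium pump, differed by -6.45 in the wild type and by 2.71 in the libraries labelled knockout, where A549 had 16.6 and 5.77 TPM.

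**Figure D2:**
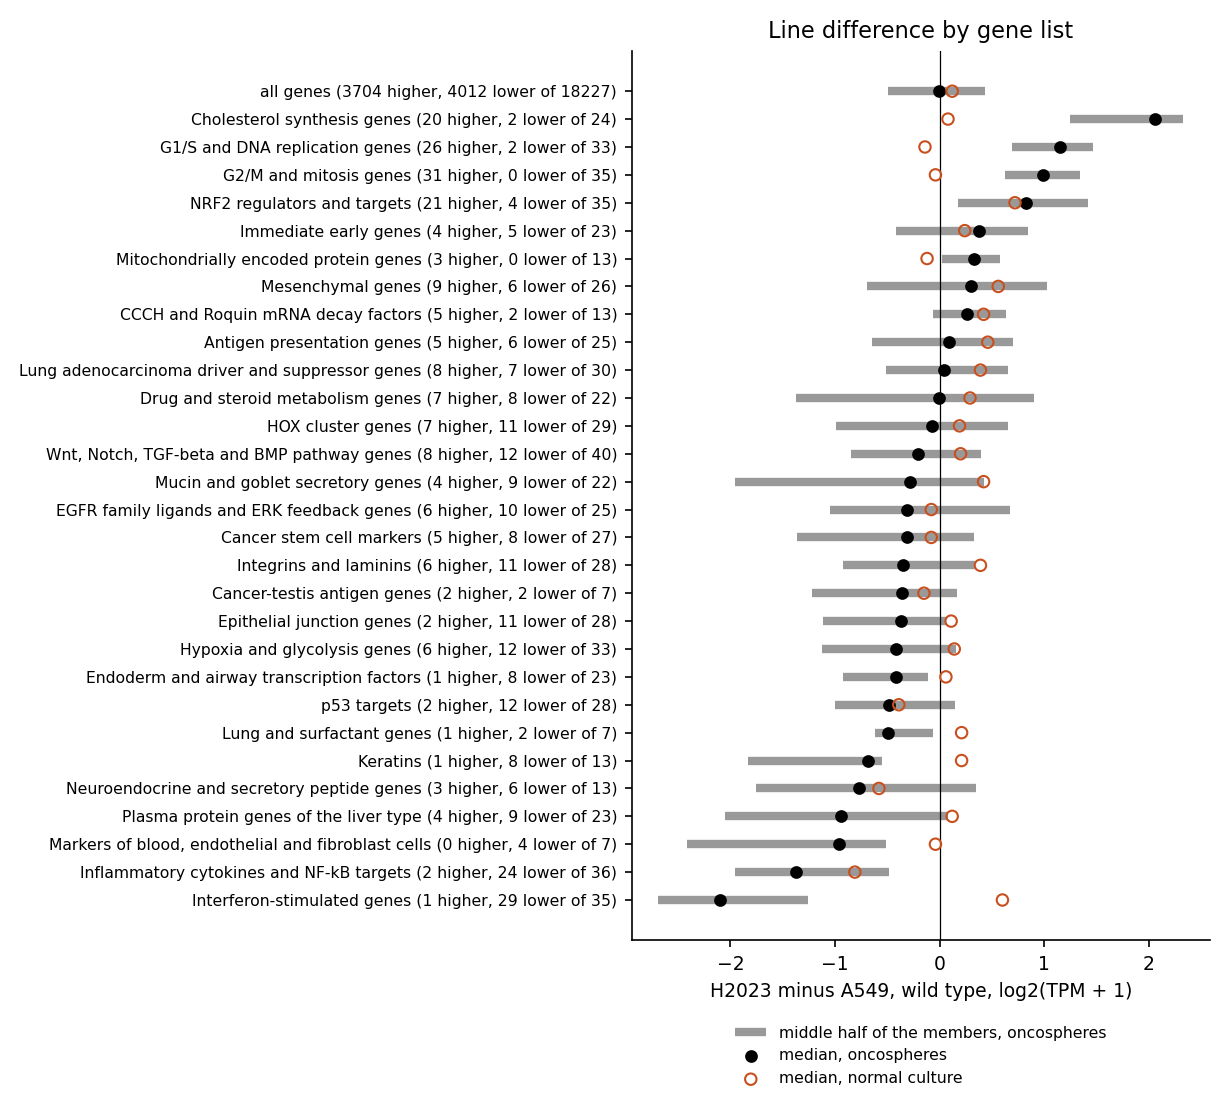
Line difference over 29 gene lists, as H2023 minus A549 on the log2(TPM + 1) scale (x axis). Filled points are list medians in oncospheres, grey bars the range from the lower to the upper quartile of the members, open points the medians in normal culture, and the labels count members called higher or lower in H2023 as oncospheres; cholesterol genes lie furthest to the right at 2.06 and interferon-stimulated genes furthest to the left at -2.10.

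Interferon-stimulated genes were lower in H2023 oncospheres. Interferons signal through factors that include STAT2 and IRF9 and bind an element of the promoter known as the interferon-stimulated response element, and the induced genes restrict viruses and sense their RNA. Of 35 measured members, 29 were lower and 1 was higher, against 22.0% and 20.3% of all genes. The median difference was -2.10, against -0.01 over all genes. Leaving out replicate 1 of A549, 25 were lower, 3 were higher and the median was -1.45. The summed level of the list was 7657 and 3098 TPM in A549 oncospheres and 1506 and 1673 TPM in H2023 oncospheres. In normal culture the order was the other way, with 429 and 431 TPM in A549 and 1421 and 1304 TPM in H2023. There 12 members were higher and 1 lower in H2023, against 22.8% and 12.6% of all genes. IFITM3 alone made up 843 and 756 TPM of the H2023 sums there, and without it the sums were 400.0 and 399 TPM in A549 and 578 and 548 TPM in H2023 normal culture. In oncospheres they were 7464 and 2998 TPM against 658 and 852 TPM without it.

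The effectors spanned the widest range. IFI27, a mitochondrial protein among the most strongly induced by interferon, was at 1162 and 264 TPM in A549 and at 4.72 and 6.64 TPM in H2023 (-6.39 ± 0.58, adjusted p = 0.000257). IFITM1, which blocks viral entry, was at 395 and 136 TPM against 2.77 and 2.05 TPM (-6.10 ± 0.49). IFI6 was at 2126 and 792 TPM against 55.3 and 81.7 TPM. IFIT1, which binds foreign 5' ends of RNA, was at 158 and 56.0 TPM against 3.04 and 3.83 TPM. In all 4 genes the lines did not overlap, as in 72.0% of all genes, and the A549 replicates lay several-fold apart. OAS1, a sensor of double-stranded RNA, had A549 replicates closer to each other, at 440 and 349 TPM, against 26.9 and 32.7 TPM in H2023. ISG15, a ubiquitin-like modifier, was at 843 and 261 TPM against 53.5 and 116 TPM.

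Among the signalling genes of the pathway, IRF7 differed by -3.32 ± 0.45, IRF9 by -2.05 ± 0.24 and STAT2 by -1.18 ± 0.23, all past the threshold. IFITM3, which restricts entry from endosomes, was the 1 member higher in H2023, at 848 and 820 TPM in H2023 against 193 and 99.2 TPM in A549 (2.58 ± 0.26, adjusted p = 0.000398). BST2, a tether of budding virus, was at 74.9 and 17.98 TPM in A549 and 43.7 and 43.3 TPM in H2023, so that the A549 replicates lay on either side of H2023. Its difference of 0.23 did not pass the test, it was 1.23 without replicate 1 of A549 (adjusted p = 0.0141) and -0.77 without replicate 2 of A549 (adjusted p = 0.0471), so that the call and its direction depend on which A549 library is left out.

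The RefSeq promoter table of build GRCh38.p14, which holds part of the genes, gave the 250 bases before the start of 27 of these 35 members. The core of the interferon-stimulated response element, searched as a pair of GAAA blocks 2 bases apart, was found on either strand in 18 of the 27 (66.7%) and in 3.37% of the 12316 measured genes with a promoter in the table. The stretches around the matches are shown for the 4 effectors with the largest differences that hold them, and for IFITM3, which differed in the other direction. Capitals mark that core or its reverse complement, and overlapping matches are joined.
IFI27 (chr14:94110588-94110690, plus strand): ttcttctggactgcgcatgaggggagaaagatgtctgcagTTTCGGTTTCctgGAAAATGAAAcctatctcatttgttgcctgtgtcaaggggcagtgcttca
IFITM1 (chr11:313960-314039, plus strand): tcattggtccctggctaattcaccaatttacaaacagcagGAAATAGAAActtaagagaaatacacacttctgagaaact
IFIT1 (chr10:89392467-89392569, plus strand): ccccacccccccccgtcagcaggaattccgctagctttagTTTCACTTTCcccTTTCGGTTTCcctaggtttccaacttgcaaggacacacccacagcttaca
IFI6 (chr1:27672236-27672388, minus strand): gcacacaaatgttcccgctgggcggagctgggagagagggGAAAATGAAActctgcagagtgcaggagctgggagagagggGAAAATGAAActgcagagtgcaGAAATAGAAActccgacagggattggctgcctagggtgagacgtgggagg
IFITM3 (chr11:320861-320952, minus strand): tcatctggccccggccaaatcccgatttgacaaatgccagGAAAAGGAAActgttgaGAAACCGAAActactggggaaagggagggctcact
IFITM3 held 2 matches, and IFI6 held 3.

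**Figure D3:**
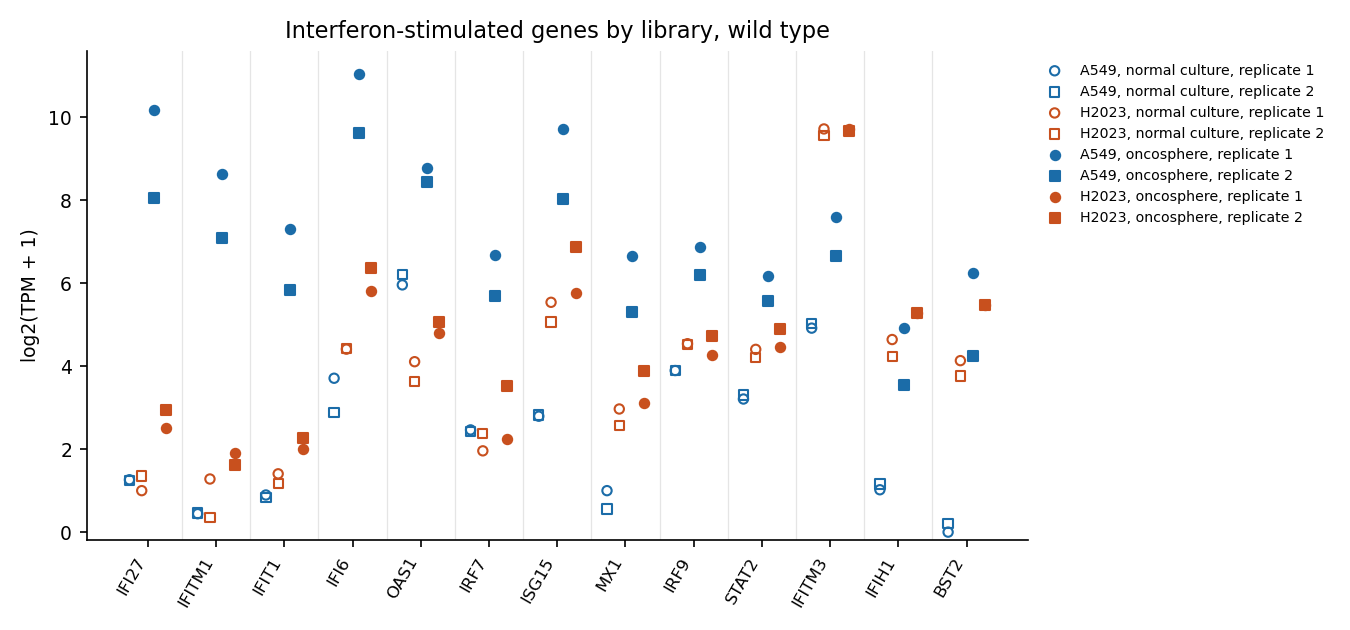
Levels of 13 interferon-stimulated genes (x axis) as log2(TPM + 1) (y axis) in each wild-type library, A549 in blue and H2023 in orange, normal culture open and oncospheres filled, circles for replicate 1 and squares for replicate 2. Filled blue circles lie above filled blue squares for every gene, and IFITM3 is higher in H2023 in both cultures.

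The line difference of this list was another one in oncospheres than in normal culture. The test of that difference, oncospheres minus normal culture, was passed by 26 of the 35 members, all with a lower value in oncospheres, against 5.41% of all genes. IFIT1, for example, was at a mean of 0.83 TPM in A549 and 1.46 TPM in H2023 normal culture, and its difference between cultures was -4.85 (adjusted p = 0.00945). Leaving out replicate 1 of A549 left 16 members, replicate 1 of H2023 left 11 and replicate 2 of H2023 left 15. In the oncosphere libraries labelled knockout the list's median was 0.59, with 10 members higher and 4 lower in H2023, against 45.4% of all genes called there in either direction. IFI27 there was at 17.95 and 1.07 TPM in A549 and 3.70 and 26.2 TPM in H2023.

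Of 25 antigen presentation genes, many of which interferon also induces, 5 were higher and 6 were lower in H2023, against 20.3% and 22.0% of all genes, so that the counts are near those of any genes. HLA-C, a classical class I heavy chain, was higher at 468 and 512 TPM in H2023 against 289 and 175 TPM in A549 (1.12 ± 0.21), and B2M, the shared light chain, did not pass the test (-0.45 ± 0.31). ERAP2, which trims peptides, was higher by 3.01 ± 0.26, and HLA-DMB, a class II peptide-loading chain, was lower (-3.01 ± 0.28). Without replicate 1 of either line the number lower was 2, and without replicate 2 of H2023 the number higher was 3. HLA genes are polymorphic, and alleles of the lines may align unequally, which was not tested.

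Cholesterol synthesis genes were higher in H2023 oncospheres almost along the whole pathway. The enzymes turn acetyl-CoA through mevalonate, squalene and lanosterol into cholesterol, and the factor encoded by SREBF2 switches them on together when membrane sterols are low. Of 24 members, 20 were higher and 2 lower in H2023, against 20.3% and 22.0% of all genes, and the median difference was 2.06. The counts were the same, 20 and 2, with each of the 4 libraries left out in turn, and the median lay between 1.63 and 2.43. The list's summed level was 1778 and 2764 TPM in A549 oncospheres and 8420 and 9188 TPM in H2023 oncospheres, and all 24 members had groups that did not overlap, as had 72.0% of all genes. Replicate 1 of A549 was below replicate 2 for 23 members.

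HMGCS1, which makes HMG-CoA, led the list at 92.9 and 176 TPM in A549 and 1310 and 1456 TPM in H2023 (3.42 ± 0.26, adjusted p = 0.000154). MVD, which decarboxylates mevalonate diphosphate, was at 68.5 and 133 TPM against 603 and 636 TPM. LSS, which closes the ring to lanosterol, was at 33.4 and 44.4 TPM against 308 and 316 TPM (2.99 ± 0.28). FDFT1, the first committed step to sterols, differed by 1.36 ± 0.19. The feedback gene INSIG1 was higher by 2.48 ± 0.37. SREBF2 itself was at 70.9 and 76.8 TPM against 116 and 112 TPM, and its difference of 0.62 ± 0.23 did not pass the test (adjusted p = 0.0609). It passed in the fits on the 4 libraries alone and on all 16, and on quantile-normalized values and values rescaled without mitochondrially encoded genes.

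EBP and PMVK went the other way. EBP, the sterol isomerase (chromosome X, 48521158 to 48528716), was at 128 and 165 TPM in A549 and at 1.95 and 1.5 TPM in H2023 (-5.75 ± 0.17, adjusted p = 4.68e-06). It was as low in H2023 in normal culture, at 2.52 and 2.71 TPM, and in the oncospheres labelled knockout, at 2.36 and 1.43 TPM. PMVK, the phosphomevalonate kinase, differed by -0.56 ± 0.11. ACAT2, a cytosolic thiolase that supplies acetoacetyl-CoA to HMGCS1 and was added to the description after its values were seen, was at 39.7 and 79.3 TPM in A549 and at 0.56 and 0.38 TPM in H2023 (-5.28 ± 0.31).

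**Figure D4:**
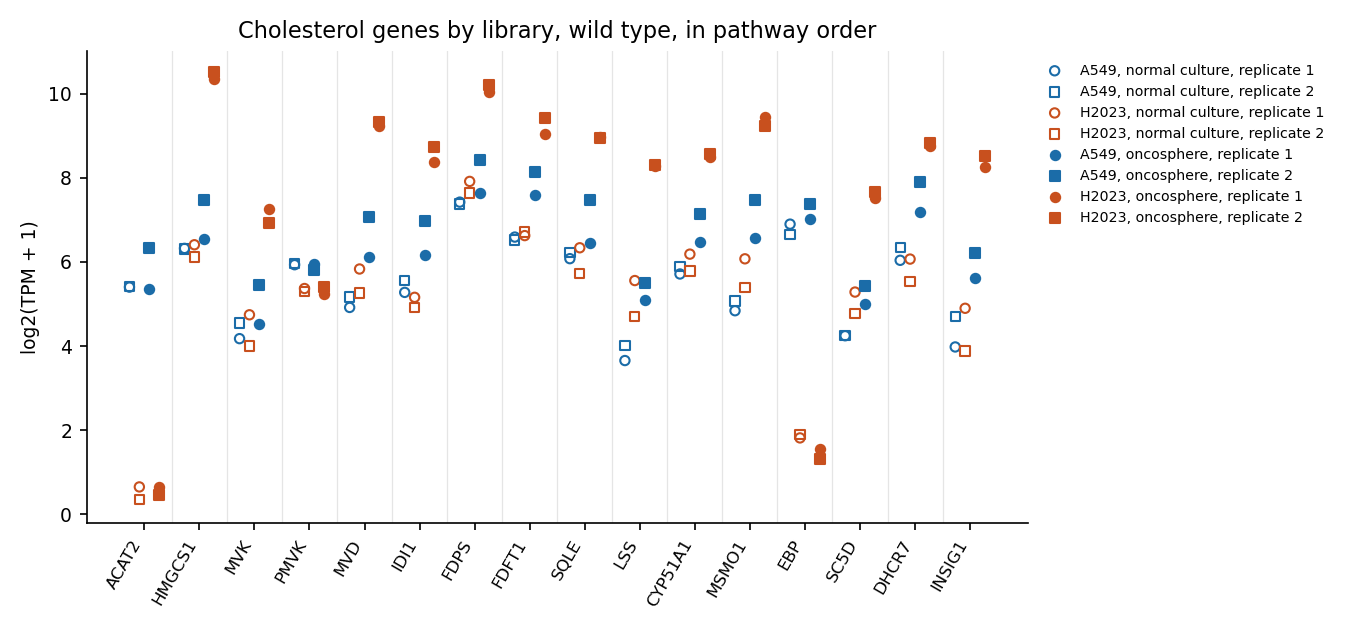
Levels of 16 cholesterol genes (x axis, in order of the pathway from ACAT2 to DHCR7, then INSIG1) as log2(TPM + 1) (y axis) in each wild-type library, A549 in blue, H2023 in orange, normal culture open and oncospheres filled, circles for replicate 1 and squares for replicate 2. H2023 oncospheres are the highest group for most steps, and ACAT2 and EBP are near 0 to 2 in H2023 in both cultures.

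In normal culture 5 members of the same list were higher and 3 lower in H2023, against 22.8% and 12.6% of all genes. The median there was 0.08. HMGCS1 there was at 78.9 and 77.9 TPM in A549 and 83.8 and 68.5 TPM in H2023. The difference between cultures passed the test for 16 of 24 members, all with a higher value in oncospheres, against 1.87% of all genes. Leaving out replicate 1 of A549 left 5, replicate 1 of H2023 left 6 and replicate 2 of H2023 left 4. In the libraries labelled knockout the list's median was 2.00, with 21 members higher and 2 lower, against 45.4% of all genes called there in either direction. The letters TCACNCCAC of the sterol regulatory element were found before the start of 1 of the 18 members with a promoter in the table and of 1.10% of measured genes.

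Cell cycle genes were higher in H2023 oncospheres, with medians below that of the cholesterol list. Of 33 genes of G1/S and DNA replication, 26 were higher and 2 lower, with a median of 1.15. Of 35 genes of G2/M and mitosis, 31 were higher and none lower, with a median of 0.99. Over all genes the shares were 20.3% higher and 22.0% lower. The replication helicase subunit MCM2 was at 6.21 and 8.25 TPM in A549 and 46.4 and 37.4 TPM in H2023 (2.39 ± 0.15, adjusted p = 9.05e-05). CDC6, which loads that helicase, was at 9.85 and 13.2 TPM against 46.1 and 49.4 TPM. MKI67, the proliferation marker Ki-67, was at 10.2 and 12.5 TPM against 24.7 and 24.0 TPM (1.05 ± 0.13), and TOP2A, the mitotic topoisomerase, differed by 1.04 ± 0.11. KIF2C, a kinesin that corrects chromosome attachment, led the mitotic list at 6.49 and 5.94 TPM against 32.5 and 31.2 TPM (2.19 ± 0.13). Of the cyclins and their partners, CDK4 was higher by 1.07 ± 0.17 and CCND1, cyclin D1, was lower, at 24.3 and 30.2 TPM in H2023 against 56.1 and 73.3 TPM in A549 (-1.21 ± 0.17). KIF23 and CCNB2 had differences of 0.13 and 0.22 that did not pass the test.

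In normal culture MKI67 averaged 76.0 TPM in A549 and 78.7 TPM in H2023, and the medians of the lists between the lines there were -0.14 and -0.04. MCM2 there averaged 89.3 TPM in A549 and 116 TPM in H2023, against 7.23 and 41.9 TPM as oncospheres, so its level was lower as oncospheres in both lines. The difference between cultures passed the test for 21 genes of each list, against 1.87% of all genes. In all of these the line difference, not the level, was higher in oncospheres. The counts of 21 rest on the libraries, and most of these genes of either list did not pass without replicate 1 of A549. In the mitotic list fewer genes also passed without replicate 2 of A549 and without replicate 1 of H2023. In the libraries labelled knockout the medians were 0.17 and 0.13.

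Targets of NRF2 were mostly higher in H2023. NRF2, encoded by NFE2L2, turns on genes of glutathione, thioredoxin and NADPH supply, and KEAP1 marks it for degradation. A549 is known to carry a mutation of KEAP1. Of 35 regulators and targets, 18 were higher and 2 lower in H2023 normal culture, against 22.8% and 12.6% of all genes, with a median of 0.72. As oncospheres 21 were higher and 4 lower, against 20.3% and 22.0% of all genes, with a median of 0.83. The number lower was 2 without either A549 library or without replicate 2 of H2023. NFE2L2 was at 41.5 and 43.2 TPM against 85.7 and 97.7 TPM (1.09 ± 0.11), and KEAP1 at 32.4 and 29.01 TPM against 78.8 and 68.9 TPM (1.24 ± 0.13). FTL, the ferritin light chain, was the most abundant gene with a difference of at least 1 in either line, at 7170 and 5623 TPM in A549 and 26919 and 33097 TPM in H2023 (2.23 ± 0.27, adjusted p = 0.000738). SRXN1, which repairs oxidised peroxiredoxins, was at 110 and 101 TPM against 488 and 642 TPM (2.40 ± 0.19). GCLM, a subunit of the enzyme that starts glutathione synthesis, differed by 1.68 ± 0.19 and TXNRD1, thioredoxin reductase, by 1.40 ± 0.13.

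Not all members were higher. NQO1, a quinone reductase often used as the readout of NRF2, was at 2017 and 1730 TPM in A549 and 2915 and 1809 TPM in H2023 and did not pass the test (0.30 ± 0.24). It passed without replicate 2 of H2023 (0.64, adjusted p = 0.0473) and on quantile-normalized values (0.59, adjusted p = 0.0374). GPX2, a glutathione peroxidase, was lower in H2023, at 736 and 794 TPM in H2023 against 2201 and 1745 TPM in A549 (-1.36 ± 0.14). The core of the antioxidant response element, searched as TGAC and GCA with 3 bases between, was found on either strand before the start of 7 of the 25 members with a promoter in the table (28.0%) and of 3.26% of measured genes. The stretches are shown, with the match in capitals, for a pair of members higher in H2023 and for the lower GPX2.
GCLM (chr1:93909431-93909505, minus strand): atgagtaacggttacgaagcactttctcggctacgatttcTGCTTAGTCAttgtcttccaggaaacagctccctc
TXNRD1 (chr12:104286889-104286978, plus strand): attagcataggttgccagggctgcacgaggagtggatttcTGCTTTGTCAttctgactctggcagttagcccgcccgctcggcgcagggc
GPX2 (chr14:64942819-64942908, minus strand): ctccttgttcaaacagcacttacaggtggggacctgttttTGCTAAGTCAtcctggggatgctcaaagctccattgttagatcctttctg
All 3 matches lie on the strand opposite to the gene.

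Enzymes that handle drugs and steroids, several of them NRF2 targets, split between the lines, beside shares of 20.3% higher and 22.0% lower over all genes. Of 22, 7 were higher and 8 lower in H2023, and 4 were higher without replicate 2 of A549 and 5 lower without replicate 2 of H2023. Beside GSTM3, the dihydrodiol dehydrogenase AKR1C1 was higher at 2648 and 3020 TPM in H2023 against 1131 and 1252 TPM in A549 (1.25 ± 0.18). Its near-identical neighbour AKR1C2 shares sequence with it, so the split of reads is uncertain. CYP3A5, a drug-oxidising cytochrome, was lower, at 5.87 and 4.10 TPM in H2023 against 64.2 and 48.5 TPM in A549 (-3.26 ± 0.25).

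Secreted inflammatory factors were lower in H2023. Of 36 cytokines, chemokines and NF-kB targets, 24 were lower and 2 higher, against 22.0% and 20.3% of all genes, with a median of -1.37. Leaving out replicate 1 of A549, 15 were lower, and without replicate 1 of H2023, 6 were higher. CCL20, a chemokine for T cells and dendritic cells, was at 145 and 92.5 TPM in A549 and 0.51 and 3.74 TPM in H2023 (-5.45 ± 0.49, adjusted p = 0.000249). IL6, a known target of Regnase-1, was at 13.8 and 11.6 TPM against 0.11 and 1.80 TPM (-2.95 ± 0.42). The neutrophil chemokine CXCL8 was at 313 and 218 TPM against 31.9 and 80.1 TPM, CXCL1 at 560 and 441 TPM against 115 and 120 TPM, and CXCL5 at 2264 and 1818 TPM against 586 and 546 TPM. PTGS2, cyclooxygenase-2, differed by -2.15 ± 0.37 and CSF3, G-CSF, by -3.52 ± 0.31. The 2 members higher in H2023 were the leukocyte adhesion receptor ICAM1, at 148 and 357 TPM in H2023 against 27.1 and 8.09 TPM in A549 (3.85 ± 0.55), and CSF1, the macrophage growth factor, at 84.6 and 113 TPM in H2023 against 24.2 and 18.2 TPM in A549 (2.17 ± 0.18). NFKB1, a subunit of the factor itself, did not pass the test (0.18 ± 0.21). Most members also stood lower in H2023 in normal culture, where 19 were lower and 2 higher, against 12.6% and 22.8% of all genes. In the libraries labelled knockout the median was 0.31, with 13 higher and 7 lower, against 45.4% of all genes called there in either direction.

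Mucin and goblet cell genes divided. Of 22, 9 were lower and 4 higher in H2023, against 22.0% and 20.3% of all genes. MUC5B, the main gel-forming mucin of the distal airway, was at 2059 and 2217 TPM in A549 and 100.04 and 49.6 TPM in H2023 (-4.90 ± 0.44, adjusted p = 0.000238). CEACAM6, a surface glycoprotein of secretory epithelium, was at 436 and 447 TPM against 4.28 and 16.9 TPM, and TFF1, a trefoil peptide that packs with mucin, at 136 and 105 TPM against 2.23 and 1.39 TPM. AGR2, the disulphide isomerase that folds mucins, was at 2782 and 3197 TPM against 2862 and 2305 TPM and did not pass the test (-0.22 ± 0.19), and neither did SLPI (0.05 ± 0.35). BPIFB1, a secreted airway protein, was higher at 15.58 and 25.9 TPM in H2023 against 1.99 and 1.71 TPM in A549 (2.89 ± 0.32). In the libraries labelled knockout the list's median was 1.11, against -0.28 here.

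Plasma protein genes of the liver type were split as well. Of 23, 4 were higher and 9 lower in H2023, against 20.3% and 22.0% of all genes. ALB, albumin, was at 24.5 and 19.1 TPM in A549 and 336 and 269 TPM in H2023 (3.73 ± 0.32), and AMBP, the precursor of alpha-1-microglobulin, at 6.62 and 4.30 TPM against 74.0 and 81.4 TPM (3.63 ± 0.23). APOE, a lipoprotein component, was higher by 4.05 ± 0.53. TF, transferrin, was at 38.9 and 39.4 TPM in A549 against 1.14 and 2.44 TPM (-3.89 ± 0.35), and SERPINA1, alpha-1-antitrypsin, differed by -2.09 ± 0.23. The fibrinogen chain gene FGA was at 351 and 469 TPM against 218 and 293 TPM and did not pass the test (-0.68 ± 0.72), and neither did FGG (-0.94 ± 1.04), which passed in the fit on the 4 libraries alone (adjusted p = 0.0136). Among 23 transcription factors of endoderm and airway, 8 were lower and 1 was higher, against 22.0% and 20.3% of all genes. Fewer were lower without replicate 1 of A549, where the median was -0.30 against -0.42. HNF4A, a hepatocyte and gut factor, was at 22.7 and 28.1 TPM against 3.14 and 0.86 TPM (-3.24 ± 0.47), and SPDEF, a goblet cell factor, at 76.4 and 75.1 TPM against 19.7 and 7.18 TPM (-2.56 ± 0.41). HNF4G, the paralog of HNF4A, was higher by 1.32 ± 0.27. FOXA2 did not pass the test (-0.26 ± 0.24). In the libraries labelled knockout the median of these factors was 0.79. There 13 were higher and 4 lower, against 45.4% of all genes called in either direction. SPDEF there differed by 2.12, HNF4A by -0.08 and HNF4G by 2.60. Lung genes of the list were mostly not among the joined genes. Of 22, 7 were measured, with 1 higher and 2 lower in H2023, against 20.3% and 22.0% of all genes. LAMP3, an alveolar type II cell marker, was lower in H2023, at 3.21 and 1.28 TPM in A549 against 0.30 and 0.22 TPM (-1.30 ± 0.26). Its difference was -0.86 without replicate 1 of A549. The other members called were CAV1 and NAPSA, and 1 of them was higher in H2023. That higher call was lost without replicate 1 of A549 or without either H2023 library. Fewer members of this list were lower without either A549 library.

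In wild-type oncospheres junction and keratin genes leaned towards A549, beside shares of 20.3% higher and 22.0% lower in H2023 over all genes. Of 28 junction genes 11 were lower and 2 higher in H2023, and 6 and 7 were lower without replicate 1 of A549 and without replicate 2 of H2023. CDH1, E-cadherin, was at 73.1 and 62.4 TPM in A549 and 25.9 and 12.7 TPM in H2023 (-1.84 ± 0.32), and DSP, desmoplakin, at 26.7 and 28.6 TPM against 4.17 and 5.92 TPM (-2.26 ± 0.18). EPCAM, an epithelial adhesion molecule, was higher in H2023, at 51.0 and 28.1 TPM in H2023 against 9.40 and 7.94 TPM in A549 (2.01 ± 0.29), and so was SPINT1, a protease inhibitor of epithelia (2.73 ± 0.36). Of 13 keratins 8 were lower and 1 higher. KRT18, a simple-epithelial keratin, was at 2484 and 3210 TPM against 1070 and 1055 TPM (-1.41 ± 0.18), and KRT15 at 23.7 and 14.8 TPM against 0.93 and 1.22 TPM (-3.25 ± 0.28). KRT19 was the 1 higher, at 406 and 441 TPM in H2023 against 46.8 and 101 TPM in A549 (2.60 ± 0.34), and KRT7 did not pass the test (-0.24 ± 0.25). In normal culture 10 junction genes were higher and 5 lower, against 22.8% and 12.6% of all genes, and 2 keratins each way. In the libraries labelled knockout 10 junction genes were higher and 4 lower, and 2 keratins were higher and 1 lower. Of all genes 45.4% were called there in either direction.

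Mesenchymal genes did not mirror that lean in wild-type oncospheres, beside shares of 20.3% higher and 22.0% lower over all genes. Of 26, 9 were higher and 6 lower in H2023, and 3 in each direction without replicate 1 of A549. The collagen VI chains COL6A1 and COL6A2 were higher, by 2.58 ± 0.21 and 3.25 ± 0.23, and the lysyl oxidase LOXL2 was lower, at 9.54 and 11.6 TPM in H2023 against 28.9 and 45.2 TPM in A549 (-1.69 ± 0.22). ZEB1, a repressor of E-cadherin, did not pass the test (0.47 ± 0.20). Of 28 integrins and laminins, 6 were higher and 11 lower, against the same shares of all genes. The laminin chains LAMC3, LAMA4 and LAMA3 were higher in H2023, LAMC3 at 17.0 and 14.3 TPM in H2023 against 0.03 and 0.04 TPM in A549 (4.0 ± 0.18). The integrin ITGA6, which pairs with ITGB4 in hemidesmosomes, was lower (-1.83 ± 0.22), as was ITGB4 (-1.72 ± 0.26).

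Of 27 stem cell markers, 5 were higher and 8 lower in H2023, against 20.3% and 22.0% of all genes. The largest difference among those called was that of NOTCH3, which was higher in H2023 and is described with the Notch genes. ALDH1A1, the aldehyde dehydrogenase behind the usual stem cell activity assay, was at 4290 and 4389 TPM in A549 and 1044 and 579 TPM in H2023 (-2.48 ± 0.26, adjusted p = 0.000449). It was among the 5 most abundant genes of A549 oncospheres with a difference of at least 1, with FTL, MT-ND1, TMSB10 and S100A6. DCLK1, a tuft cell kinase, was at 8.77 and 8.17 TPM against 0.26 and 0.24 TPM (-2.92 ± 0.20), and LIN28B, which blocks let-7 maturation, differed by -2.03 ± 0.18. CD44 was at 547 and 481 TPM against 415 and 247 TPM and did not pass the test (-0.68 ± 0.24, adjusted p = 0.0532). It passed with the replicate block (adjusted p = 0.0128), in the fit on all 16 libraries, on centred values, at a minimum of 1 TPM, and without replicate 1 of H2023 (-1.05, adjusted p = 0.00658). POU5F1 and ABCG2 did not pass, with differences of -0.14 and 0.38, and KLF4 did not pass (0.28) except without replicate 1 of H2023 (0.98, adjusted p = 0.04).

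Receptors and a feedback gene of Notch were higher in H2023. NOTCH3 was at 8.15 and 21.6 TPM in A549 and 173 and 110 TPM in H2023 (3.27 ± 0.48, adjusted p = 0.00168), NOTCH2 differed by 1.64 ± 0.14 and NOTCH1 by 1.37 ± 0.24. The ligand JAG2 was higher by 1.54 ± 0.25, and the ligand JAG1 lower, at 17.2 and 22.8 TPM in H2023 against 51.4 and 45.3 TPM in A549 (-1.24 ± 0.17). Among targets, NRARP was higher by 2.05 ± 0.19 and HES1 did not pass the test (0.01 ± 0.35). The Wnt antagonist DKK1 was lower in H2023, at 53.04 and 20.3 TPM in H2023 against 323 and 510 TPM in A549 (-3.58 ± 0.41), and the ligand WNT5A was higher (2.35 ± 0.26). BMP4 was at 30.2 and 34.1 TPM in A549 and 5.0 and 1.64 TPM in H2023 (-3.05 ± 0.41). ID1, a direct BMP target, was at 482 and 686 TPM against 159 and 40.2 TPM (-2.83 ± 0.53), and without replicate 2 of H2023 its difference was -1.85. Over the 40 pathway genes of Wnt, Notch, TGF-beta and BMP, 8 were higher and 12 lower, against 20.3% and 22.0% of all genes.

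Glycolysis and hypoxia genes were mixed, with 6 of 33 higher and 12 lower in H2023, and 3 higher without replicate 1 of A549. CA9, a carbonic anhydrase induced by hypoxia, was at 82.9 and 77.0 TPM in A549 and 9.33 and 0.56 TPM in H2023 (-4.33 ± 0.73). The glycolytic enzyme PGK1 was at 714 and 857 TPM against 294 and 219 TPM (-1.62 ± 0.16) and LDHA, which makes lactate, differed by -1.25 ± 0.22. ENO1, enolase, went the other way, at 2893 and 3149 TPM in H2023 against 1285 and 1498 TPM in A549 (1.12 ± 0.16), as did the hexokinase HK1 (1.35 ± 0.11). GAPDH did not pass the test (-0.12 ± 0.18). For this list and the next, the shares of all genes are 20.3% higher and 22.0% lower. Of 28 p53 targets, 12 were lower and 2 higher in H2023, and 7 were lower without replicate 1 of A549. TP53I3 was at 57.2 and 58.7 TPM against 14.1 and 14.7 TPM (-1.94 ± 0.14) and MDM2 did not pass the test (0.29 ± 0.18). GDF15, a stress cytokine counted on this list, was higher at 216 and 247 TPM in H2023 against 80.6 and 45.2 TPM in A549 (1.92 ± 0.39).

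Of 30 driver and suppressor genes of lung adenocarcinoma, 8 were higher and 7 lower in H2023, against 20.3% and 22.0% of all genes. STK11, the kinase LKB1 upstream of AMPK (chromosome 19, 1177558 to 1228435), was at 28.7 and 27.7 TPM in A549 and 0.43 and 0.93 TPM in H2023 (-4.13 ± 0.20, adjusted p = 2.83e-05). It was as low in H2023 in normal culture, at 0.84 and 1.11 TPM, and in the oncospheres labelled knockout, at 0.44 and 0.72 TPM. A549 is known to carry an inactivating mutation of STK11, which its mRNA level does not show. ROS1, a receptor kinase, was at 6.25 and 9.76 TPM against 0.11 and 0.41 TPM (-2.82 ± 0.22). MYC was higher at 123 and 81.2 TPM in H2023 against 42.6 and 40.8 TPM in A549 (1.24 ± 0.21). U2AF1, a splicing factor, differed by 3.22 ± 0.41 but has a near-identical copy, so its counting is uncertain. Without replicate 1 of A549 the number lower was 3, and it was 4 without replicate 2 of either line.

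Further lists had few or opposing members, beside shares of 20.3% higher and 22.0% lower over all genes. Among 25 EGFR ligands and ERK feedback genes, 6 were higher and 10 lower in H2023, the phosphatase DUSP5 being higher by 2.18 ± 0.22 and the ligand EREG lower (-2.21 ± 0.37), and 3 were higher without replicate 1 of A549. Among 29 HOX genes, 7 were higher and 11 lower. HOXA9 and HOXA11 were at 5.33 to 11.9 TPM in H2023 and under 0.6 TPM in A549, and HOXA3 and HOXB9 were lower in H2023, with differences of -2.45 and -2.47. Without replicate 1 of A549, 4 HOX genes were higher and 6 lower, and without replicate 2 of H2023, 6 were lower. Of 7 cancer-testis genes measured out of 30, MAGEA3 was higher in H2023, at 80.6 and 80.5 TPM in H2023 against 4.90 and 3.97 TPM in A549, and XAGE1A was at 29.7 and 22.8 TPM in A549 and listed at 0 in H2023. Both belong to families of near-identical copies. Of 13 peptide and neuroendocrine genes, 3 were higher and 6 lower, and beside NTS the secretory granule genes VGF (-4.17 ± 0.42) and CHGB (-4.03 ± 0.52) were lower. SCG2, another granin, was higher at 11.5 and 18.8 TPM in H2023 against 0.97 and 0.83 TPM in A549. Of 23 immediate early genes, 4 were higher and 5 lower, again near the shares of all genes, and 9 were higher without replicate 1 of H2023. Of 13 mitochondrially encoded genes 3 were higher, and none was without replicate 1 of A549. MT-ND1, a subunit of complex I, was at 6077 and 6531 TPM against 13912 and 12828 TPM (1.08 ± 0.22), and it did not pass without replicate 1 of A549 (1.03, adjusted p = 0.0503) or on quantile-normalized values (0.46).

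Across all genes, the difference between the lines was another one in oncospheres than in normal culture for 1327 genes (7.28%), 341 with a higher value in oncospheres (1.87%) and 986 with a lower one (5.41%). The count rests on the libraries: it was 302 without replicate 1 of A549 and 806 to 997 without another. The direction also rests on the scale, since the median of this difference over genes of at least 1 TPM was -0.15. With that median taken out, 514 were higher and 615 lower, and with quantile-normalized values 564 and 574. Beside members of the lists above, the genes with the lowest values were CST1 (-6.57), TCN1 (-6.34) and DMBT1 (-5.78). TCN1, a vitamin B12 carrier, was at 161 and 98.8 TPM in A549 oncospheres and 0.15 and 0.76 TPM in H2023 oncospheres, against 0.50 and 0.69 and 0.63 and 0.28 TPM in normal culture. DMBT1, a mucosal scavenger protein, was at 250.45 and 50.2 TPM in A549 oncospheres and at most 2.17 TPM in the other wild-type libraries. At the other end were PRDM16 (3.99), HMGCS1 (3.47), OLFML3 (3.29), GDF15 (3.28), AP1M2 (2.71) and INSIG1 (2.43). The calls of DMBT1 and OLFML3 were lost without replicate 1 of A549 (-4.63 and 2.95), that of DMBT1 also without replicate 2 of H2023 (-4.97), and that of INSIG1 with any 1 of the 4 libraries left out (2.14 to 2.72). PRDM16, a transcriptional regulator, was at 12.03 and 16.4 TPM in H2023 oncospheres and at most 0.54 TPM in the other wild-type libraries. OLFML3, a secreted matrix protein, was at 131 and 67.3 TPM in A549 normal culture, 6.8 and 11.5 TPM in A549 oncospheres and at most 0.04 TPM in H2023.

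**Figure D5:**
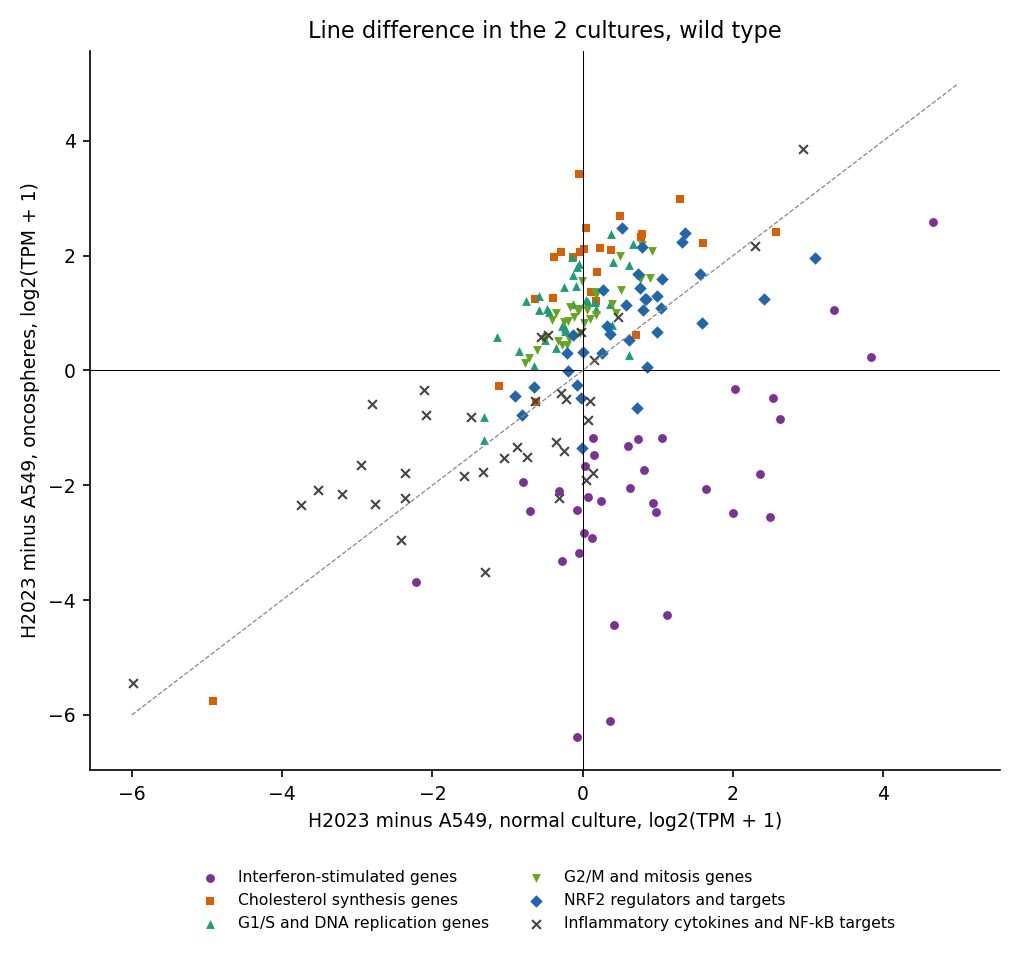
Difference of the lines, H2023 minus A549 on the log2(TPM + 1) scale, in normal culture (x axis) and as oncospheres (y axis) for the members of 6 lists, 1 point per gene and 1 colour per list. The dashed line marks equal differences; interferon-stimulated genes lie mostly below it and cholesterol and cell cycle genes mostly above it, while NRF2 genes and inflammatory genes lie on either side.

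The calls were compared with those in libraries that the oncosphere contrast does not use. Of the 7716 genes called in wild-type oncospheres, 3987 were also called in normal culture in the same direction and 159 in the opposite one, where 6457 genes (35.4%) were called. The shared genes are 51.7% of the oncosphere calls and 61.7% of the normal culture calls. In the oncosphere libraries labelled knockout, 4560 were called in the same direction and 326 in the opposite one, which is 59.1% of the wild-type calls and 55.1% of the 8280 calls there. Of the 3340 genes with a difference of at least 1, 2269 (67.9%) were called in the same direction there and 166 in the opposite one.

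The differences were not spread evenly over the chromosomes. Over genes of at least 1 TPM, the median difference was lowest on chromosome X (-0.69, 454 genes) and 15 (-0.53, 487 genes), followed by 14 (-0.44) and 11 (-0.39). Over all genes, with no minimum level, 20.3% were higher and 22.0% lower in H2023. On chromosome 14, 210 of 502 genes were lower in H2023 and 28 were higher. Medians were highest on chromosome 21 (0.46, 178 genes), 9 (0.39) and 1 (0.34), and on chromosome 1, 552 of 1438 genes were higher and 186 lower. In normal culture these chromosomes stood at -0.49, -0.25, -0.29 and -0.20 and at 0.59, 0.53 and 0.51, in the same order. In the oncospheres labelled knockout they stood at -0.60, -0.38, -0.26 and -0.14 and at 0.70, 0.37 and 0.22. With genes of at least 10 TPM the sign of each of these 7 medians was the same. Copy number was not measured, and its part in these medians was not tested.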

How the data were processed

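RNA was measured by stranded poly(A) RNA-seq in 16 libraries, 8 of them wild type. Per the submitters' processing notes, HISAT2, StringTie and build GRCh38 were used, with versions and settings not given in the sources used here. The authors deposited TPM per gene and library in 4 tables, scaled within each library, and per the file headers a mean normalized count over the 4 libraries of a table, a signal used only for depth. Rows with the same identifier held identical values and were merged, which left 18227 genes. Groups come from the sample labels.

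log2(TPM + 1) was fitted with limma 3.58.1 (R 4.3.3, empirical Bayes with a mean-variance trend) over the 8 wild-type libraries, with Benjamini-Hochberg adjustment over all genes and no filter on low values. A separate fit used the 8 libraries labelled knockout. Calls need an adjusted p under 0.05. The fit was tested on simulated data. Positions are those of GENCODE 29. Members and gene lists were chosen with earlier results of these data known. Named genes are ZC3H12A, the 15 largest differences each way, up to 6 leading members of each list with further members, picked with their values known, that show no difference or define its role, the 6 largest differences between cultures each way and the 5 most abundant genes per line with a difference of at least 1. Some genes that this rule gives are not reported here. ACAT2, CD14, LYZ, SNURF and SNHG14 were named after their values were seen where that rule does not give them. The alternatives were other pseudocounts (0.1 and 5), a minimum of 1 TPM, rescaling, centring, quantile normalization, other sets of libraries, no trend, a replicate block and each oncosphere library left out.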

Additional observations from a re-analysis of the deposited data

Results flagged for a closer look

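For 69 genes that the text or its plots name, the difference between the lines was itself not the same in both cultures by the interaction term of the limma fit, with adjusted p between 0.00119 (TFF1) and 0.0496 (IFIH1). Each value is the difference H2023 minus A549 as oncospheres less the same difference in normal culture, on the log2(TPM + 1) scale, so that a negative value means that H2023 stood relatively lower as oncospheres. Of the 69, 40 were past the threshold without replicate 1 and 58 without replicate 2 of A549 oncospheres, and 44 and 45 without replicate 1 and 2 of H2023 oncospheres. All 4 omissions kept 34 of them, and 7 were lost under each omission: LSS, INSIG1, ALB, POU5F1, DCLK1, TP53I3 and AKR1C1.

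Among interferon-stimulated genes the value was, per gene, IFITM1 (-6.46), IFI27 (-6.32), IFI6 (-5.37), ISG15 (-5.05), IFIT1 (-4.85), MX1 (-4.48), BST2 (-3.61), IRF7 (-3.04), IRF9 (-2.68), IFIH1 (-2.3), STAT2 (-2.24), IFITM3 (-2.08) and OAS1 (-1.46). Among cholesterol genes the value was, per gene, HMGCS1 (3.47), INSIG1 (2.43), IDI1 (2.37), MVD (2.18), SQLE (2.11), MVK (2.1), FDPS (1.72), LSS (1.69), DHCR7 (1.64), SC5D (1.59), CYP51A1 (1.53) and FDFT1 (1.25). Among cell cycle genes the value was, per gene, CDC6 (2.12), MCM2 (2.01), KIF2C (1.4), TOP2A (1.09), MKI67 (1.0), CCNB2 (0.94) and KIF23 (0.91). Among secreted, mucin and plasma protein genes the value was, per gene, CST1 (-6.57), TFF1 (-6.44), TCN1 (-6.34), DMBT1 (-5.78), CEACAM6 (-5.67), SERPINA3 (-5.3), TF (-3.88), AGR2 (-2.32), SERPINA1 (-2.19), ALB (2.24), GDF15 (3.28) and OLFML3 (3.29). Among genes of inflammation and antigen presentation the value was, per gene, CSF3 (-2.21), CXCL1 (1.44), HLA-C (-1.95), CD14 (-2.16) and LYZ (-3.34). Among junction, keratin and matrix genes the value was, per gene, KRT15 (-3.47), KRT19 (-2.66), ITGB4 (-1.92), LOXL2 (-1.41), DSP (-1.25), VIL1 (-4.48) and TM4SF4 (-4.3). Among genes of redox balance, drug handling and metabolism the value was, per gene, CYP3A5 (-2.61), GPX2 (-1.34), AKR1C1 (-1.16), TXNRD1 (1.14) and HK1 (-1.63). Among regulators and receptors the value was, per gene, PRDM16 (3.99), ROS1 (-2.66), JAG1 (-1.85), POU5F1 (-1.79), DCLK1 (-1.48), AP1M2 (2.71), MLF1 (1.53) and TP53I3 (-0.97).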

How the results depend on the processing

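The number of genes that differ between the lines as oncospheres was 7716 as reported and 7132 to 8704 under the other scalings, pseudocounts, filters and fits that kept all replicates, save for 6140 in the fit on the 4 libraries alone, and 5250 to 6162 with 1 library left out. The difference between cultures was called for 1327 genes as reported, 2574 in the fit over all 16 libraries, and 302 to 997 with 1 oncosphere library left out. The 302 are without replicate 1 of A549, and all 1327 genes kept their sign with each library left out. Rescaling without mitochondrially encoded genes gave 481 higher and 813 lower, against 341 and 986. The fit on 4 libraries cannot give this difference. BST2 was 1.23 and -0.77 without replicate 1 and without replicate 2 of A549, against 0.23. Another 12 named genes that were not called took the other sign under an alternative, none past the threshold with that sign. Correlations between groups of the change from replicate 1 to replicate 2 lay between -0.05 and 0.162. The labels do not say what the replicate number stands for, and these values do not settle whether same-numbered libraries share more. With the replicate block 7771 genes were called between the lines and 1308 between cultures. Depth per library is unknown, which limits genes near 0 TPM.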
